A study of Mus musculus with 12 samples.

Results

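A set of 6 genes encoding subunits of the receptors for γ-aminobutyric acid (GABA) was followed in the mouse brainstem: Gabra2, Gabra3, Gabra4, and Gabra5, which encode the α2 to α5 subunits of the GABA-A receptor, and Gabbr1 and Gabbr2, which encode the subunits of the GABA-B receptor. They were chosen by name, not by a threshold on their values, and are 6 of the 55418 genes in the count table. The RNA came from the brainstem (medulla and pons) of 12 outbred CFW mice at postnatal day 15 (P15). The 6 mice of each treatment were 3 females and 3 males, and 1 library was made from each mouse. Pups had been injected under the skin with morphine sulfate or with saline from birth to the day before tissue collection, in litters that held both treatments, so the morphine mice were in spontaneous withdrawal and differed from the saline mice by repeated drug exposure and by withdrawal at once. The paper also reports lower body weights in morphine-exposed pups, and deaths of pups in the morphine group only. The labels do not give the dam, so p values rest on the spread between mice with littermates not marked.

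GABA-A receptors are chloride channels built of 5 subunits, and the type of α subunit sets where a receptor sits, how fast it closes, and which benzodiazepines act on it. Receptors with α2 or α3 are mostly synaptic, those with α4 commonly pair with δ, and those with α5 are mostly extrasynaptic. GABA-B receptors are G protein-coupled and work as a pair, in which the GABBR1 protein binds GABA and GABBR2 carries the complex to the cell surface and activates the G protein. They open GIRK potassium channels and close presynaptic calcium channels, as μ-opioid receptors do in many of the same neurons.

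On GRCm38, Gabra2 lies on the minus strand at chr5:70957597-71095849 and Gabra4 on the same strand at chr5:71569749-71658308, in a cluster with Gabrg1 and Gabrb1. Gabra5 lies at chr7:57407672-57510059 on the minus strand beside Gabrg3, and Gabra3 at chrX:72432681-72656848 on the minus strand between Gabre and Gabrq. Gabbr1 lies at chr17:37045966-37075067 on the plus strand and Gabbr2 at chr4:46662305-46991873 on the minus strand. All are protein-coding, and their counts are reads on exons, untranslated ones included. Coding sequence makes up 17.7% of the exon length of Gabra2, the smallest share of the 6, and 46.7% of that of Gabra5, the largest. The exons of Gabra4 share 46 bases with Gabrb1 on the other strand and those of Gabra5 share 148 bases, or 4.98% of their length, with the antisense gene Gm9962. Whether the counting used strand is not given in the sources used here, so reads in those bases could belong to either gene.

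The promoters of Gabra2 and Gabbr1 are shown because these genes stand on opposite sides of the pattern between libraries described further on. Each is the 250 bases before the start of the RefSeq gene on GRCm38.p6, written 5′ to 3′ on the strand of the gene, and capitals mark GGGCGG or its reverse complement CCGCCC, the core of the GC box.
Gabra2 (chr5:71095850-71096099, minus): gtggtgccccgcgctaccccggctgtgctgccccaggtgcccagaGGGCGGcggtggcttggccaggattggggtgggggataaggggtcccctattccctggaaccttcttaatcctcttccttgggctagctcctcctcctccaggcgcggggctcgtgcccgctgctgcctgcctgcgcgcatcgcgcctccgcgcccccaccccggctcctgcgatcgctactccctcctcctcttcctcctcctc
Gabbr1 (chr17:37045716-37045965, plus): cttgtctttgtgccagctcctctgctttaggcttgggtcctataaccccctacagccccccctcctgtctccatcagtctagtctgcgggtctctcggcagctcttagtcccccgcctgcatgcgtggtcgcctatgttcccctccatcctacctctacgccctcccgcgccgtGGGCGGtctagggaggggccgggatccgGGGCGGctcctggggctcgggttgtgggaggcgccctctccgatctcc
The window of Gabra2 held 1 match and that of Gabbr1 held 2, while 32.7% of 32851 RefSeq windows of this length held at least 1. The GC content of the window was 70.0% in Gabra2 and 66.0% in Gabbr1, against a median of 52.4% over all windows. Gabra4 also held 2 matches, and no match was found in the window of Gabra5. Gabra3 has more than 1 RefSeq start, and none of its windows held a match. In 1 of them, 41 bases lie within the gene as annotated here. The window of Gabbr2 held 2 matches at a GC content of 80.8%, but 159 of its bases lie within the gene, so it was not compared further. The α2 gene thus had a GC-rich promoter ahead of a transcript that was poor in GC, at 38.4% over its longest annotated transcript, whereas the longest transcript of Gabbr1 had 53.0%.

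Between 27850565 and 48097947 counts per library fell on genes, with a median of 33214511, and every member had at least 992 counts in every library. Defining markers of neurons and of the hindbrain were present in all libraries. The sum of 8 Hox genes of the hindbrain was 81.8 to 118.8 CPM (read counts scaled to library size, here with TMM factors), and that of 5 forebrain neuron genes was 13.9 to 21.0 CPM. The library labelled morphine male 6 went against its label in part, with Xist at 380.1 CPM and the Y-linked Ddx3y at 12.8 CPM. The other males had at most 2.64 CPM of Xist and at least 114.8 CPM of Ddx3y. Saline male 3 stood apart from the other males in the level of many genes, so results that rest on either library are given with and without it. Saline male 2 lay opposite to saline male 3 in the measure of GC content described further on. Fits without saline male 2 are therefore also given for Gabra2, Gabra3, and Gabra4. In bulk tissue, fewer cells of a type and less RNA per cell cannot be told apart.

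Of the GABA-A members, Gabra2 had the most counts. Its level was 221.8, 222.1, and 215.8 CPM in saline females and 208.3, 212.7, and 216.4 CPM in morphine females. In males, it was 170.4, 161.8, and 258.6 CPM with saline and 182.0, 206.9, and 157.3 CPM with morphine. The females lay within a narrow band and the males spread more widely. Saline male 3 was the highest of the 12 libraries, all other males lay below the female band, and morphine male 6 was the lowest. Treatment groups overlapped in both sexes.

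Gabra3 encodes the α3 subunit, which is prominent in brainstem monoamine neurons. It had 145.3, 139.4, and 139.2 CPM in saline females and 141.4, 128.5, and 135.7 CPM in morphine females. Its values in saline males were 110.6, 96.6, and 172.0 CPM and in morphine males 128.7, 128.5, and 108.6 CPM. The same library, saline male 3, was again the highest, and saline male 2 was the lowest.

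The α4 gene, Gabra4, had the lowest level of the 6. Saline females had 41.4, 42.7, and 41.0 CPM and morphine females 42.8, 45.4, and 36.6 CPM. Saline males had 32.8, 31.2, and 51.4 CPM and morphine males 35.8, 36.9, and 33.2 CPM. All males other than saline male 3 lay within 31.2 to 36.9 CPM, and the 6 females within 36.6 to 45.4 CPM.

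For Gabra5, saline females had 53.2, 48.0, and 42.4 CPM and morphine females 50.7, 41.3, and 48.8 CPM. Saline males had 39.0, 39.3, and 55.0 CPM and morphine males 48.2, 41.3, and 38.8 CPM. Groups overlapped throughout, and this α gene varied within the females more than Gabra2 or Gabra3 did, with a coefficient of variation (CV, SD over mean) of 9.84% in the 6 females against 2.46% for Gabra2 and 4.15% for Gabra3.

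The GABA-B genes were steadier in CPM, before the offsets for GC content described further on. Gabbr1 had 657.5, 631.0, and 602.6 CPM in saline females, 610.7, 639.4, and 683.4 CPM in morphine females, 653.5, 648.2, and 593.5 CPM in saline males, and 669.3, 624.8, and 649.0 CPM in morphine males. Its CV over the 12 libraries was 4.25%, and only 0.752% of the 9974 genes with a mean of at least 10 CPM had a lower one. The median CV of those genes was 13.7%, and the lowest of the 4 α genes was close to it at 12.7%. Gabbr2 had 146.1, 127.6, and 124.5 CPM in saline females, 135.9, 123.2, and 156.6 CPM in morphine females, 153.1, 155.8, and 127.5 CPM in saline males, and 152.5, 137.0, and 149.0 CPM in morphine males. Its CV was 9.15%, and saline male 3, the highest male for each α gene, was the lowest male for both GABA-B genes.

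**Figure D1:**
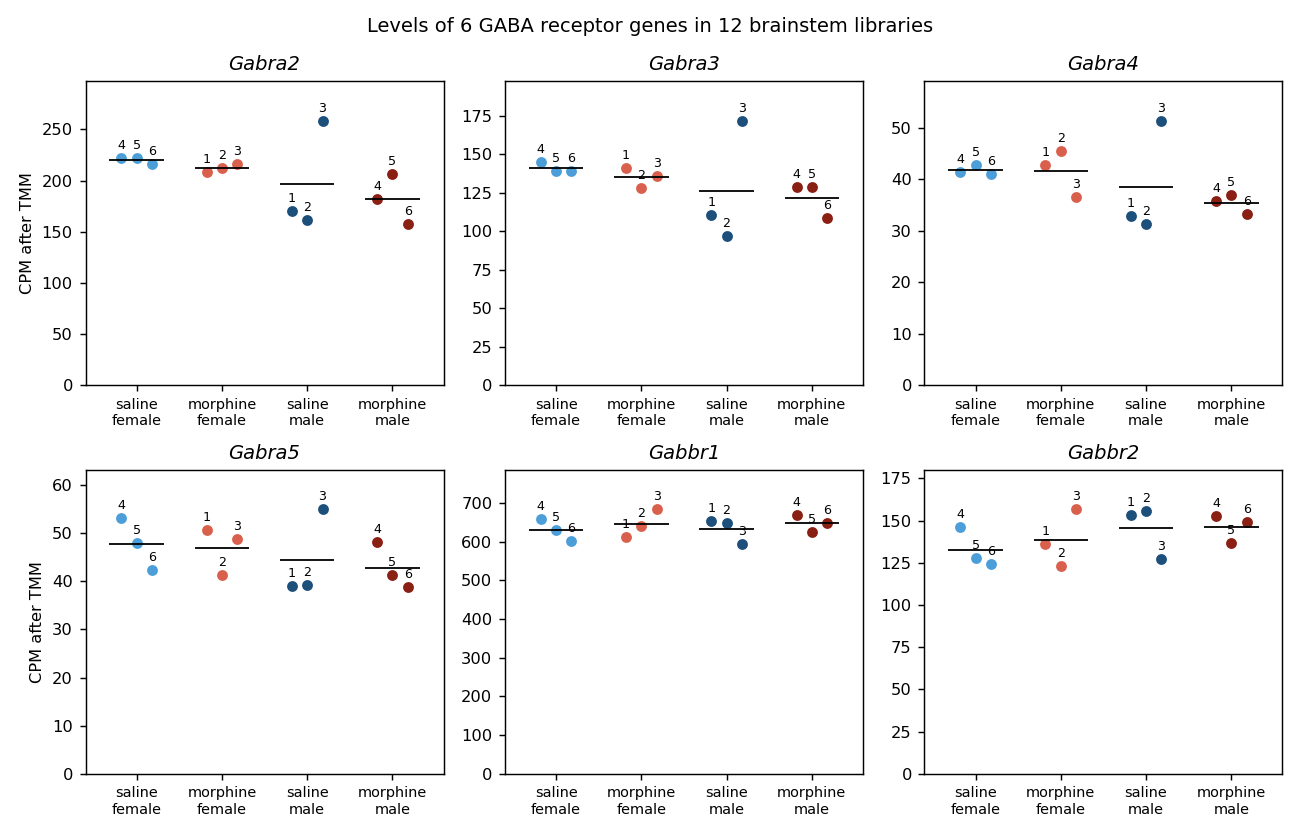
Level of each of the 6 genes in CPM after TMM normalization (vertical axes, from 0) in the 4 groups, with 1 point per mouse, numbered by replicate, and a line at the group mean. The α genes spread widely in saline males, where replicate 3 lies above the other 2, and Gabbr1 stays between 593.5 and 683.4 CPM.

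Levels were compared between genes only per length, as CPM per kilobase of the union of annotated exons. Gabbr1 was the highest at 82.2 ± 3.49 CPM per kb (SD, n = 12), followed by Gabra3 at 33.4 ± 5.02, Gabra2 at 26.5 ± 3.86, Gabbr2 at 21.0 ± 1.93, Gabra5 at 15.3 ± 1.95, and Gabra4 at 6.46 ± 0.970 CPM per kb. Gabbr1 lay above 98.0% of the 18570 genes with a length and Gabra4 above 66.9%. The order of neighbours was the same in all 12 libraries except for Gabra2 and Gabbr2, where Gabra2 was the higher in 9 of 12. Gabbr2 was the higher in saline male 1, saline male 2, and the library labelled morphine male 6. These had the highest values of the GC measure described further on, at 0.91, 1.18, and 0.56, and its part in this order was not tested. With the longest transcript as the length, Gabra2 exceeded Gabbr2 in all 12, and Gabra3 exceeded Gabra2 in 9 of 12 only. The ratio of Gabbr2 to Gabra5 reached down to 1.03, so these neighbours were nearly level in some libraries. Within α2 to α5 and per length, Gabra3 made up 38.4% to 41.9%, Gabra2 30.3% to 34.0%, Gabra5 16.8% to 20.6%, and Gabra4 7.05% to 9.11%. The ranges of the saline and the morphine mice overlapped for each share, for example 16.8% to 20.6% and 16.9% to 20.6% for Gabra5. Gabbr1 exceeded Gabbr2 by 3.58 to 4.47 times per length, with a median ratio of 3.87. The shares and this ratio depend on the length used. With the longest transcript, mean levels were 35.8 for Gabra3 and 34.7 CPM per kb for Gabra2. Those of Gabbr1 and Gabbr2 were then 121.7 and 24.5 CPM per kb, further apart than with the union of exons.

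**Figure D2:**
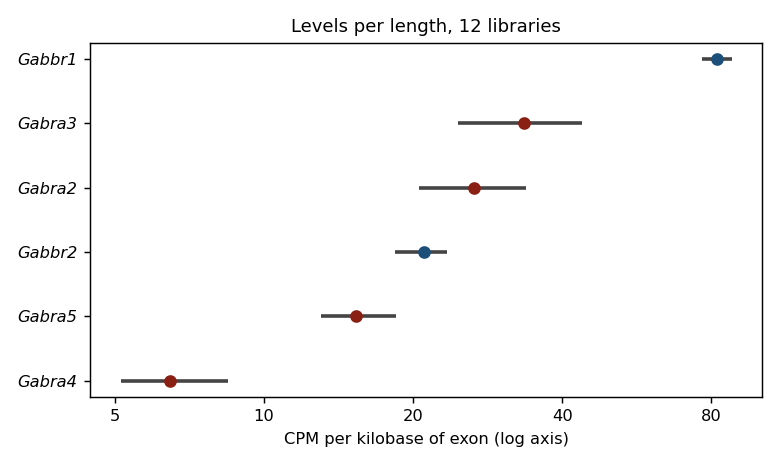
Level of each gene per kilobase of exon (horizontal log axis, CPM per kb), with the mean of 12 libraries as a point and the lowest to highest library as a line, α genes in red and GABA-B genes in blue. Gabbr1 lies above the others at 82.2 and Gabra4 below them at 6.46.

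The first comparison asked whether repeated morphine and withdrawal went with a change in these genes over both sexes. DE genes were those with an unadjusted p under 0.05 and an absolute Log2FC over 0.26 in the quasi-likelihood test of edgeR with sex as a covariate. Over all 18608 genes tested, 1.19% passed, and none of the 6 members did. At an adjusted p under 0.05 the share of all genes was 0%, with 246 genes at an unadjusted p under 0.05. Log2FC (morphine over saline) was -0.08 ± 0.11 (SE, 6 against 6 mice) for Gabra2, -0.06 ± 0.12 for Gabra3, -0.06 ± 0.12 for Gabra4, and -0.04 ± 0.11 for Gabra5. It was 0.03 ± 0.06 for Gabbr1 and 0.03 ± 0.08 for Gabbr2, and the adjusted p of edgeR was 1.00 for each of the 6. Over all genes the median Log2FC was -0.02, and over the 6 it was -0.05.

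The 95% intervals give the changes that these mice leave possible. They ran from a Log2FC of -0.32 to 0.16 for Gabra2, -0.31 to 0.20 for Gabra3, -0.32 to 0.19 for Gabra4, and -0.28 to 0.19 for Gabra5. Those of Gabbr1, -0.10 to 0.17, and of Gabbr2, -0.14 to 0.21, lay within the limit of 0.26 on both sides in this fit. They come from levels without the offsets for GC content described further on. With those offsets, the SD over libraries rose from 0.06 to 0.11 for Gabbr1 and from 0.13 to 0.21 for Gabbr2. In males alone, the upper bound passed 0.26 for both genes, at 0.27 and 0.29. As folds, the widest bounds of the 6 genes were 0.801 and 1.16. In a two-sided exact permutation test over the 400 arrangements of mice within sex, p was 0.61 for Gabra2, 0.80 for Gabra3, 0.815 for Gabra4, 0.75 for Gabra5, 0.37 for Gabbr1, and 0.65 for Gabbr2, before any adjustment for 6 genes. The treatment groups overlapped for all 6 members, as they did for all but 0.0376% of the genes tested.

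Without saline male 3, Log2FC turned to 0.01 for Gabra2, 0.05 for Gabra3, 0.04 for Gabra4, and 0.02 for Gabra5, and to -0.0017 for Gabbr1 and -0.02 for Gabbr2, each below its SE. Without the library labelled morphine male 6, Log2FC was between -0.04 and 0.03 for the 6 genes. Without saline male 2, it was -0.13 for Gabra2, -0.13 for Gabra3, and -0.12 for Gabra4. Without morphine female 3, Gabbr1 was at -0.0048 and Gabbr2 at -0.03. The signs of these small differences thus changed with single libraries.

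In females, where 1.81% of 18109 genes were DE and 0% had an adjusted p under 0.05 (343 at an unadjusted p under 0.05), no member passed. Log2FC was -0.06 ± 0.08 (SE, 3 against 3 mice) for Gabra2, -0.07 ± 0.08 for Gabra3, -0.01 ± 0.10 for Gabra4, -0.04 ± 0.11 for Gabra5, 0.02 ± 0.08 for Gabbr1, and 0.05 ± 0.11 for Gabbr2. The intervals of Gabra2 and Gabra3, -0.23 to 0.11 and -0.25 to 0.11, were the narrowest of the α genes and lay within the limit of 0.26 on both sides. No member separated the female groups, against 5.66% of all genes. The smallest p that an exact permutation test allows for 3 mice against 3 is 0.1, and the lowest among the members was 0.2, for Gabra2.

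In males, 2.99% of 18166 genes were DE, 0% had an adjusted p under 0.05 (543 at an unadjusted p under 0.05), and again no member passed. Log2FC was -0.14 ± 0.21 for Gabra2, -0.08 ± 0.23 for Gabra3, -0.15 ± 0.22 for Gabra4, and -0.08 ± 0.19 for Gabra5, with SEs well above those in females. For Gabbr1 it was 0.01 ± 0.11 and for Gabbr2 -0.02 ± 0.13. The interval of Gabra3 ran from -0.62 to 0.46, which is wider than the interval of the same gene in females. Groups overlapped for all 6, while 8.85% of the genes tested had groups that did not. Leaving out saline male 3 moved the α genes to 0.13, 0.24, 0.14, and 0.13 in the order α2 to α5, with adjusted p of edgeR from 0.18 to 0.47. Leaving out the library labelled morphine male 6 gave -0.06, -0.01, -0.12, and -0.03. Leaving out saline male 2 moved Gabra2 to -0.27, Gabra3 to -0.24, and Gabra4 to -0.29, opposite to the shift without saline male 3.

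Whether the response to morphine differed between the sexes was tested by the interaction of treatment and sex, in which 2.94% of 19027 genes met the limits used for DE genes (559, the same as at an unadjusted p under 0.05 alone) and the share at an adjusted p under 0.05 was 0%. No member did. The interaction term (male minus female Log2FC) was -0.06 ± 0.23 for Gabra2, 0.01 ± 0.25 for Gabra3, -0.12 ± 0.24 for Gabra4, -0.03 ± 0.23 for Gabra5, 0.0023 ± 0.13 for Gabbr1, and -0.06 ± 0.17 for Gabbr2. Intervals of the α genes reached at least 0.41 in each direction, so a sex difference of that size in the response was not excluded. Without saline male 3 the term was 0.16 ± 0.13 for Gabra2, 0.27 ± 0.13 for Gabra3, 0.12 ± 0.14 for Gabra4, 0.13 ± 0.17 for Gabra5, -0.06 ± 0.11 for Gabbr1, and -0.17 ± 0.15 for Gabbr2, with none DE. Without the library labelled morphine male 6 it was between -0.08 and 0.09 for the 6 genes. Without saline male 2 it was -0.19 for Gabra2, -0.15 for Gabra3, and -0.25 for Gabra4.

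**Figure D3:**
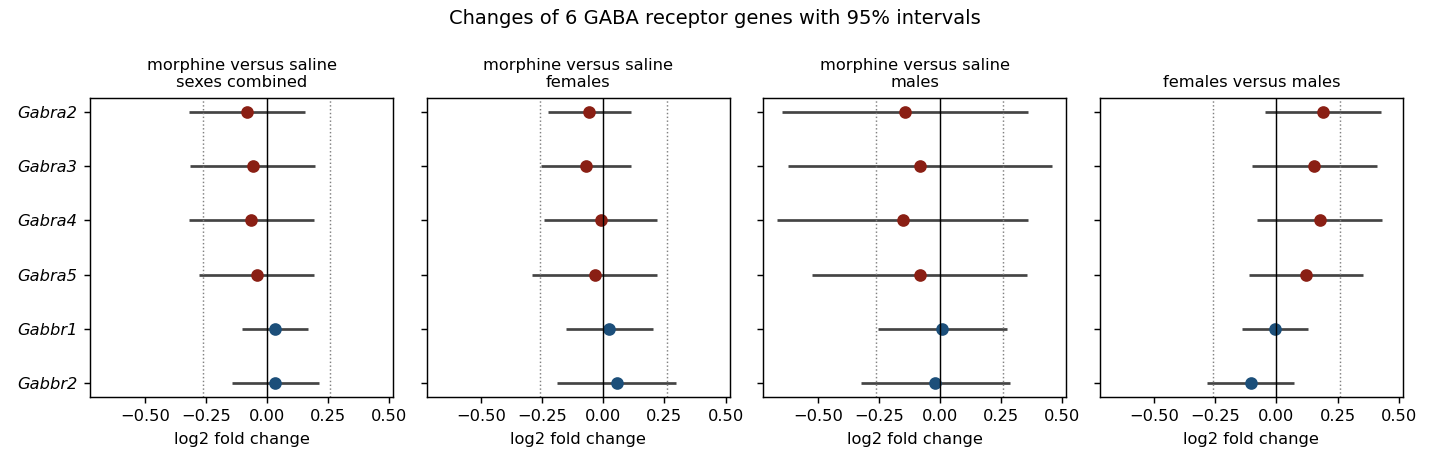
Log2 fold change of each gene (horizontal axes) for morphine over saline in both sexes, in females, and in males, and for females over males, with 95% intervals from edgeR as lines, a solid line at 0, and dotted lines at the limit for DE genes of 0.26. Every interval includes 0, and those of the α genes in males are the widest.

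Sex itself was then compared, with treatment as a covariate. Log2FC (females over males) was 0.19 ± 0.11 for Gabra2, 0.16 ± 0.12 for Gabra3, 0.18 ± 0.12 for Gabra4, and 0.12 ± 0.11 for Gabra5, against -0.01 ± 0.06 for Gabbr1 and -0.10 ± 0.08 for Gabbr2. None of the 6 was DE, whereas 3.94% of 18608 genes were and 0.0269% had an adjusted p under 0.05. The exact permutation p over 400 arrangements within treatments was 0.1 for Gabra2, 0.18 for Gabra3, 0.125 for Gabra4, and 0.255 for Gabra5, with no adjustment for 6 genes. Females and males overlapped for every member and for all but 0.14% of genes.

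This comparison turned on saline male 3. Without it, Gabra2 at 0.28 ± 0.07 and Gabra4 at 0.28 ± 0.07 passed the thresholds for DE genes, with adjusted p of edgeR of 0.052 and 0.053, and Gabra3 stood at 0.26 ± 0.07 with an adjusted p of 0.058. The number of DE genes over the whole table went at the same time from 733 to 3947, so many genes other than the receptor genes moved past the thresholds with them. Without the library labelled morphine male 6, whose sex markers were mixed, the 4 α genes stood between 0.09 and 0.15. Without saline male 2, Gabra2 stood at 0.14, Gabra3 at 0.08, and Gabra4 at 0.13.

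The members did not vary independently between libraries. Gabra2 and Gabra3 had a Pearson r of 0.94 over the 12 libraries (log2 CPM), Gabra2 and Gabra4 one of 0.90, and Gabra3 and Gabra5 one of 0.85. Gabbr1 and Gabbr2 had an r of 0.78. Pairs of an α gene and a GABA-B gene all had a negative r, from -0.81 for Gabra4 and Gabbr2 to -0.16 for Gabra5 and Gabbr1. These correlations are descriptions over 12 points that share their library, depth, and base composition. Without saline male 3, Gabra2 and Gabra3 were at 0.92 and Gabra4 and Gabbr2 at -0.81. Over the same libraries, Gabra3 and Gabbr1 went from -0.48 to -0.24, Gabra5 and Gabbr2 were at -0.02, and Gabra5 and Gabbr1 turned to 0.13. The ratio of the summed α genes to the summed GABA-B genes, per length, ran from 0.601 in saline male 2 to 1.10 in saline male 3.

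Most neighbours in the genome had similar patterns. Gabrg1, which encodes the γ1 subunit, had an r of 0.93 with Gabra2 next to it, Gabrb1 one of 0.81 with Gabra4, Gabrg3 one of 0.57 with Gabra5, and Gabrq one of 0.94 with Gabra3. For each of these cluster neighbours and for Gabre the Log2FC for morphine over both sexes was between -0.06 and 0.18, and none was DE. Genes outside the clusters were as close or closer. Among 15055 genes with a mean of at least 1 CPM, the most similar to Gabra2 were Lmbrd1 (r of 0.99), Ube2g1 (0.98), and Abcd3 (0.98), and to Gabra3 they were St8sia3 (0.99), Tmem65 (0.99), and Arcn1 (0.99). Gabra4 was closest to Agps (0.97), Eps15 (0.97), and Tapt1 (0.96), and Gabra5 to Ltv1 (0.94), Tpm1 (0.93), and Pfn4 (0.93). For Gabbr1 they were Sstr2 (0.95), Ccdc92b (0.95), and Cs (0.94), and for Gabbr2 they were Chrna4 (0.94), Ndrg4 (0.94), and Ergic1 (0.94).

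A measure of the whole library moved with both groups of genes. For each library, the median deviation (log2 CPM from the mean of 12) of the 1857 genes lowest in GC content, up to 40.7%, was taken from that of the 1857 highest, from 57.5%. This difference was -1.15 in saline male 3, 1.18 in saline male 2, 0.91 in saline male 1, 0.56 in the library labelled morphine male 6, and between -0.67 and 0.10 in the other 8. Over the same libraries, the median deviation of the 4 α genes was 0.38 in saline male 3, -0.31 in saline male 2, -0.23 in saline male 1, and -0.24 in the library labelled morphine male 6. For the 2 GABA-B genes it was -0.12, 0.09, 0.08, and 0.06 in the same order. The measures had a Pearson r of -0.89 (Spearman rho -0.69) for the α genes and of 0.78 (rho 0.83) for the GABA-B genes over the 12 libraries, and of -0.84 and 0.72 without saline male 3. Longest transcripts had a GC content of 38.4% in Gabra2, 43.1% in Gabra3, 42.2% in Gabra4, and 47.1% in Gabra5, and of 53.0% in Gabbr1 and 56.0% in Gabbr2.

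**Figure D4:**
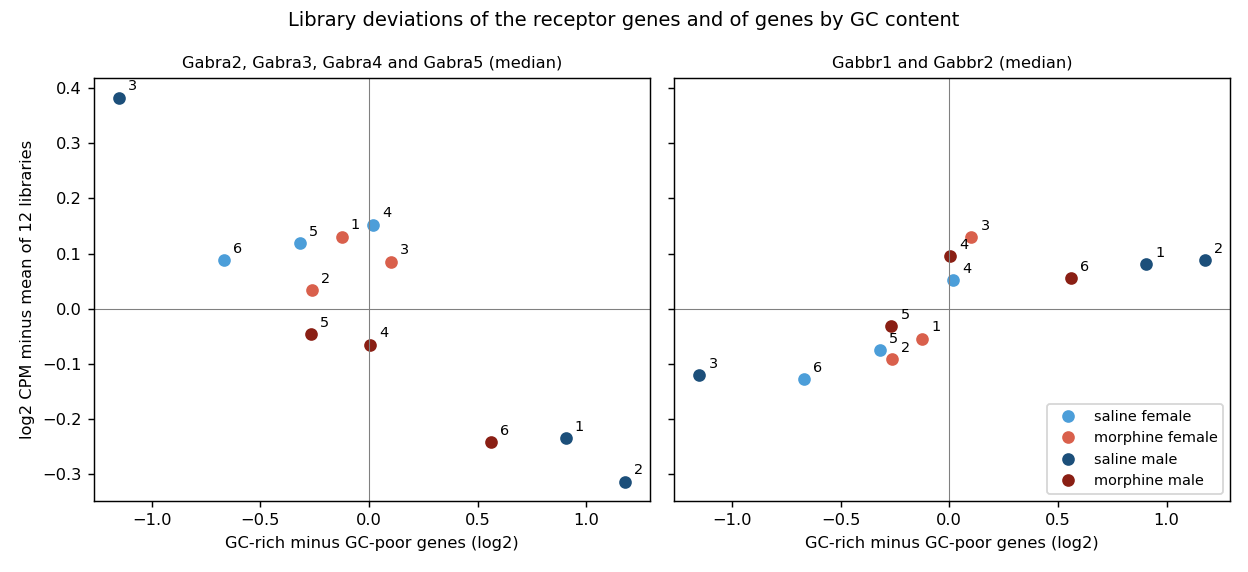
Deviation of the α genes (left) and of the GABA-B genes (right) in each of 12 libraries from the mean of all (vertical axis, log2 CPM, median of the genes) against the deviation of GC-rich minus GC-poor genes (horizontal axis, log2), with points numbered by replicate and coloured by group. The α genes run from 0.38 in saline male 3 down to -0.31 in saline male 2, and the GABA-B genes run the other way over a smaller range.

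Offsets that removed the trend with GC content within each library changed the spread of the members unequally. The SD over 12 libraries (log2 CPM) went from 0.21 to 0.11 for Gabra2, from 0.22 to 0.10 for Gabra3, from 0.21 to 0.10 for Gabra4, and from 0.18 to 0.15 for Gabra5. For Gabbr1 it went from 0.06 to 0.11 and for Gabbr2 from 0.13 to 0.21, while the median SD of all genes went from 0.27 to 0.20. After the offsets, Gabbr2 thus had the largest SD of the 6, and Gabbr1 was close to Gabra2, Gabra3, and Gabra4. With these offsets, Log2FC for morphine over both sexes was -0.05 ± 0.06 for Gabra2, -0.03 ± 0.06 for Gabra3, -0.03 ± 0.06 for Gabra4, and -0.04 ± 0.09 for Gabra5, and no member was DE in any comparison. For Gabbr1 and Gabbr2 the Log2FC for morphine over both sexes was 0.01 each. The females over males difference was 0.10 ± 0.06 for Gabra2, 0.09 ± 0.06 for Gabra4, 0.08 for Gabra3, and 0.07 for Gabra5. For the GABA-B genes it changed sign, from -0.01 to 0.06 for Gabbr1 and from -0.10 to 0.06 for Gabbr2. Cell type markers also moved between these libraries. The sum of 7 pan-neuronal genes was 6159 CPM in saline male 3 and 4946 and 5233 CPM in the other saline males, and that of 6 oligodendrocyte genes was 38092 CPM against 56691 and 55363 CPM. In the libraries labelled morphine male 4, 5, and 6 the neuronal sum was 4777, 4820, and 4757 CPM. Their oligodendrocyte sum was 32503, 39555, and 40895 CPM, and the median deviation of the α genes was -0.07, -0.05, and -0.24. Females had 4828 to 5907 CPM of the neuronal sum and 37569 to 47621 CPM of the oligodendrocyte sum. The part of these markers in the levels of the receptor genes was not tested.

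Few of the other genes of GABA signaling were DE. The lists held 72 genes besides the members: the remaining GABA-A subunits, scaffold proteins of inhibitory synapses, partners and effectors of the GABA-B receptor, the enzymes and transporters of GABA, chloride cotransporters, and glycine receptor subunits. Over both sexes, 1 of the 67 tested was higher with morphine and 0 were lower, with a median Log2FC of -0.02, the same as over all genes. In females 0 of 66 were higher and 2 lower, and in males 2 of 67 were higher and 0 lower. For the interaction 3 of 67 passed, and between the sexes 3 of 67 were lower in females. No gene of these lists was below an adjusted p of 0.05 in any of the 5 comparisons, and the shares passed are close to those over all genes. None of the 18 genes tested from the scaffold list, of the 9 partners of GABA-B receptors, or of the 5 glycine receptor subunits was DE in any comparison.

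Among the effectors of the GABA-B receptor, Kcnj6, which encodes the GIRK2 channel subunit, was DE in males. Saline males had 5.63, 4.99, and 5.34 CPM and morphine males 7.78, 7.33, and 7.65 CPM, while saline females had 6.13, 6.02, and 7.27 CPM and morphine females 6.28, 6.34, and 4.69 CPM. The male groups did not overlap, as was also so for 8.85% of all genes, and the female groups did. Log2FC in males was 0.49 ± 0.16 (adjusted p of edgeR 1.00), and the interaction with sex was 0.68 ± 0.23 (adjusted p 0.985). The male value was below the thresholds in 3 of the 6 fits that left out 1 male, among them the one without the library labelled morphine male 6, at 0.47.

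The transporters that take up GABA around vessels and in the membranes of the brain, Slc6a13 (GAT2) and Slc6a12 (BGT1), were the 2 genes lower in morphine females. Slc6a13 had 10.9, 10.6, and 15.8 CPM in saline females and 7.78, 9.56, and 4.91 CPM in morphine females, with a Log2FC of -0.75 ± 0.25 (adjusted p of edgeR 1.00). Slc6a12 had 2.06, 1.86, and 3.08 CPM against 1.20, 1.68, and 1.62 CPM, with a Log2FC of -0.65 ± 0.28 (adjusted p 1.00). Groups did not overlap for either gene, as for 5.66% of all genes in females. Of the 6 fits that left out 1 female, Slc6a12 was DE in only 2 and Slc6a13 in all 6. Without saline female 6, Slc6a12 was at -0.38 and not DE, and Slc6a13 was at -0.52. The summed level of 4 choroid plexus markers was 9.55, 39.7, and 466.3 CPM in the saline females and 161.7, 29.0, and 126.9 CPM in the morphine females, and saline female 6 was the highest female in this sum and in both transporters. The part of choroid plexus and other membranes in these changes was not tested. In males, the sum of these markers was 516.0, 423.6, and 260.8 CPM with saline and 777.3, 828.8, and 411.1 CPM with morphine. Log2FC in males was 0.07 ± 0.23 for Slc6a13 and 0.47 ± 0.29 for Slc6a12, neither DE. The interaction with sex was 0.84 ± 0.38 for Slc6a13 and 1.13 ± 0.41 for Slc6a12 (adjusted p 0.985 for both). The interaction of the 4 choroid plexus markers was also positive, with a median of 1.58, and 1 of them passed the thresholds. Their part in the interaction of the transporters was not tested.

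Gabra6, the α subunit gene typical of cerebellar granule cells, was the only listed gene that was DE over both sexes, at 0.99 ± 0.44 (adjusted p of edgeR 1.00), and was also DE in males, at 1.35 ± 0.46 (adjusted p 1.00). Its level was 0.79 to 8.73 CPM in the saline mice and 5.75 to 19.1 CPM in the morphine mice, and morphine male 5 alone was above 8.73 CPM. The sum of 5 granule cell markers was 125.8 CPM in that library and 71.5 to 93.6 CPM in the others. Without morphine male 5, Log2FC of Gabra6 was 0.65 over both sexes and 0.73 in males, not DE in either, and over both sexes it was DE in 5 of the 12 fits that left out 1 mouse. The α genes described above did not share this change, since in morphine male 5 they deviated from the mean of 12 libraries by -0.13 to 0.04 on the log2 scale.

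Between the sexes, Gabrd, which encodes the δ subunit that pairs with α4, was lower in females, with a Log2FC of -0.53 ± 0.23. Females had 1.01 to 2.11 CPM and males 1.10 to 3.29 CPM, so the groups overlapped. Slc12a5, which encodes the chloride exporter KCC2, had 228.2 to 278.0 CPM in females and 195.0 to 414.6 CPM in males, with a Log2FC of -0.34 ± 0.16, and Slc6a13 had -0.49 ± 0.22. The adjusted p of edgeR was 0.734 for each of the 3. With offsets for GC content none of the 3 remained DE, and Slc12a5 was at -0.03 ± 0.06. Of the 12 fits that left out 1 mouse, Gabrd was DE in 4 and Slc12a5 and Slc6a13 in 3 each.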

How the data were processed

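Poly-A RNA was sequenced as single-end reads with the 12 libraries on 1 lane. After trimming (Trimmomatic) and alignment to mm10 (STAR), the authors used featureCounts and an Ensembl GRCm38 annotation to obtain exon counts per gene, and deposited these counts for 55418 genes. All values are whole and library totals differ, so the table was taken as raw counts. The extraction text of the labels names spinal cords, whereas the tissue label and the methods give brainstem, which was followed.

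Groups came from the labels of treatment and sex. After TMM normalization and filterByExpr, glmQLFit and glmQLFTest of edgeR 4.0.16 (R 4.3.3) gave the main results, with Benjamini-Hochberg adjustment over all genes tested. For both sexes together, sex was a covariate, each sex was also fitted alone, and the interaction and the sex difference were fitted over the 12 mice. Genes were called at an unadjusted p under 0.05 and an absolute Log2FC over 0.26. Each SE is the Log2FC over the square root of the F statistic. CPM of single libraries use TMM factors over the 12 libraries, with a prior count of 2 in logs. Single members were also compared with exact permutation tests over mice. Scripts were tested on simulated counts with known changes. Alternatives were exactTest, DESeq2 1.42.0, other scaling, filters, and covariates, a replicate block, and leaving out each mouse. Offsets for GC content (a loess trend within each library) were chosen after seeing the data.

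Gene models, exon lengths, and GC content came from GENCODE M21 on GRCm38, matched by symbol: 77 of the 55418 symbols were not found and 108 stood for more than 1 gene. Promoters are from RefSeq (GRCm38.p6). The text names the 6 members, for each the 3 genes with the highest r over the libraries, cluster neighbours (not all are reported here), and at most 3 called genes of each pathway list in a comparison. Genes named for sex and tissue checks are besides. The members and lists were chosen with earlier results of these data known.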

Additional observations from a re-analysis of the deposited data

Results flagged for a closer look

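In 3 cases the value of a single library stood far from the rest of its group by Dixon's criterion, among 48 groups of 6 libraries looked at for 12 genes. Chance flags about 1 in 20 groups. Gabra4 was 51.4 CPM in saline male 3, with the other males at 31.2 to 36.9 CPM. Gabra6 was 19.1 CPM in morphine male 5, far from the other morphine mice and from the other males.

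The interaction of treatment and sex passed the unadjusted thresholds for Kcnj6 (0.68 on the log2 scale, male minus female response), Slc6a13 (0.84), and Slc6a12 (1.13), with an adjusted p of 0.985 for each in edgeR. Kcnj6 passed in all 12 of the fits that left out 1 mouse, Slc6a12 in 10, and Slc6a13 in 3. Without saline female 6, the library with the most of both transporters among the females, Slc6a13 was at 0.59 and Slc6a12 at 0.84, and neither passed.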

How the results depend on the processing

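No member was called under any alternative in the 4 comparisons that involve morphine. These alternatives comprised scaling by total counts, DESeq2 (its Wald test and its size factors), exactTest of edgeR, other filters on low counts, no sex covariate, the contrast within a sex from all 12 mice, a threshold on p alone, offsets for GC content, and leaving out each mouse. Between the sexes, where exactTest, the sex covariate, and the contrast within a sex do not apply, 0 members were called except without saline male 3, where 2 were. For the interaction exactTest was not run either. The replicate numbers recur between a saline and a morphine mouse of opposite sex, with correlations of same-numbered deviations from -0.36 to 0.18. These correlations cannot decide whether same-numbered mice were littermates, since no label gives the dam. The replicate block gave 182 DE genes against 221 and called 0 members. Gabra6 over both sexes was no longer called with the block (1.05 ± 0.60). The numbers of DE genes over the whole table moved more. With no filter on low counts they were 754 over both sexes, 1094 in females, 985 in males, 1665 for the interaction, and 2321 between the sexes. With offsets for GC content there were 1344 in males and 1148 for the interaction, and the contrast from all 12 mice gave 218 in females. Leaving out 1 mouse gave 177 to 458 over both sexes, 208 to 1482 in females, 253 to 5341 in males, 290 to 4695 for the interaction, and 330 to 3947 between the sexes. The highest of these was without saline male 3, except in females, where it was without saline female 4.

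Many Log2FC of the members changed sign, and none of these was called. With 1 mouse left out, Log2FC ranged over both sexes from -0.13 to 0.014 for Gabra2, -0.13 to 0.051 for Gabra3, -0.12 to 0.044 for Gabra4, -0.097 to 0.023 for Gabra5, -0.0048 to 0.047 for Gabbr1, and -0.031 to 0.066 for Gabbr2. It ranged in females from -0.077 to 0.073 for Gabra4, -0.11 to 0.049 for Gabra5, -0.019 to 0.063 for Gabbr1, and -0.042 to 0.13 for Gabbr2. It ranged in males from -0.27 to 0.13 for Gabra2, -0.24 to 0.24 for Gabra3, -0.29 to 0.14 for Gabra4, -0.18 to 0.13 for Gabra5, -0.013 to 0.090 for Gabbr1, and -0.073 to 0.079 for Gabbr2. It ranged for the interaction from -0.19 to 0.16 for Gabra2, -0.15 to 0.27 for Gabra3, -0.25 to 0.12 for Gabra4, -0.13 to 0.13 for Gabra5, -0.064 to 0.047 for Gabbr1, and -0.17 to 0.041 for Gabbr2. It ranged between the sexes from -0.051 to 0.0057 for Gabbr1. Scaling by total counts moved the Log2FC over both sexes of Gabra5 to 0.0074; in males Gabra3 to 0.046, Gabra5 to 0.044, and Gabbr2 to 0.11; for the interaction Gabra2 to 0.034, Gabra5 to 0.073, and Gabbr2 to 0.045. Offsets for GC content moved it in females for Gabra4 to 0.031, Gabbr1 to -0.018, and Gabbr2 to -0.052; in males Gabbr2 to 0.042; for the interaction Gabra3 to -0.017 and Gabbr2 to 0.11; between the sexes Gabbr1 to 0.065 and Gabbr2 to 0.059. Both the Wald test and the size factors of DESeq2 moved it for the interaction for Gabra3 to -0.013 and Gabbr1 to -0.022. No filter on low counts moved it in males for Gabbr1 to -0.00074; for the interaction Gabra3 to -0.0023 and Gabbr1 to -0.014. The contrast from all 12 mice moved it in males for Gabbr2 to 0.0049.

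Scaling by total counts moved the median Log2FC of all genes from -0.06 to 0.06 in males and from -0.03 to 0.07 for the interaction, and the cause of the sign changes was not tested. Lengths of the longest transcript gave 121.7 CPM per kb for Gabbr1 and 9.56 for Gabra4 and the same order of the 6 mean levels. Lengths from RefSeq were not run, because that table gives the span of a gene. Each member had at least 992 counts in each library.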
